A study of Mus musculus with 9 samples.

Results

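Antigen presentation was followed through 10 mouse genes, Psmb8, Psmb9, Psmb10, Tap1, Tap2, B2m, H2-K1, H2-D1, H2-Aa and Cd74, out of 8251 genes named on the array. The genes were taken by name, and every probe set that the platform annotation assigns to 1 of them alone was used, which gave 15 of 12422 probe sets. Of these, 13 were bright enough to be tested. A probe set is a group of short oligonucleotides on the array that together report 1 transcript. H2-K1 and H2-D1 had 3 probe sets each, Tap1 had 2 and each of the other genes had 1.

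The study set the developing and adult cornea against the lens and a tendon. RNA came from adult cornea (7 weeks of age, n = 3), cornea at postnatal day 10 (P10, n = 2), adult lens (7 weeks, n = 2) and the adult flexor digitorum longus tendon (7 weeks, n = 2), each an independent RNA preparation. Corneas were freed of the limbus and the epithelium was scraped away, which lowered its share without removing it, per the series' design text. RNA for lens and tendon was pooled, per the labels, and no strain or genotype is given in the sources used here. The cornea arrays also served an earlier study by the same group, so a batch of arrays and the tissue cannot be told apart in comparisons of cornea with lens or tendon. Values are a linear expression index in arbitrary units, which can fall below 0.

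Cells show fragments of their own proteins on class I molecules of the major histocompatibility complex, so that CD8 T cells can inspect them. The proteasome cuts the proteins, and under interferon its catalytic subunits are replaced by Psmb8, Psmb9 and Psmb10, forming the immunoproteasome. The transporter made of Tap1 and Tap2 carries the peptides into the endoplasmic reticulum, where they are loaded on a heavy chain (H2-K1 or H2-D1) paired with the light chain beta-2-microglobulin (B2m). Class II molecules, of which H2-Aa encodes an alpha chain and Cd74 the invariant chain that guards the groove, present engulfed proteins and are made mainly by dendritic cells, macrophages and B cells. The cornea and the lens are both known as tissues with restricted immune responses, and the lens has no blood vessels and is enclosed in a capsule.

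The arrays were of similar brightness, with medians of 67.6 to 88.0. The labelled tissues carried their defining genes. The summed index of 7 lens genes was 4715 to 8573 in cornea of either age and 33863 to 35264 in lens, against 531 to 578 in tendon. In cornea that sum was mostly crystallins, with Cryaa averaging 1934 in adult cornea, against 6818 in lens. Mip averaged 33.2 in adult cornea, against 1859 in lens, and Bfsp1 averaged 68.9, against 3516. The tendon arrays also carried much skeletal muscle RNA, the sum over 14 muscle genes being 576 to 1201 in cornea of either age, against 52369 to 62106 in tendon. Epithelial genes were still high in both corneas. On the array of adult cornea replicate 1 the ratio of 3' to 5' signal was 2.25 for Gapdh and 4.69 for actin, against 0.831 to 1.04 and 1.07 to 2.07 on the others. In bulk tissue, fewer cells of a type and less RNA per cell cannot be told apart.

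**Figure D1:**
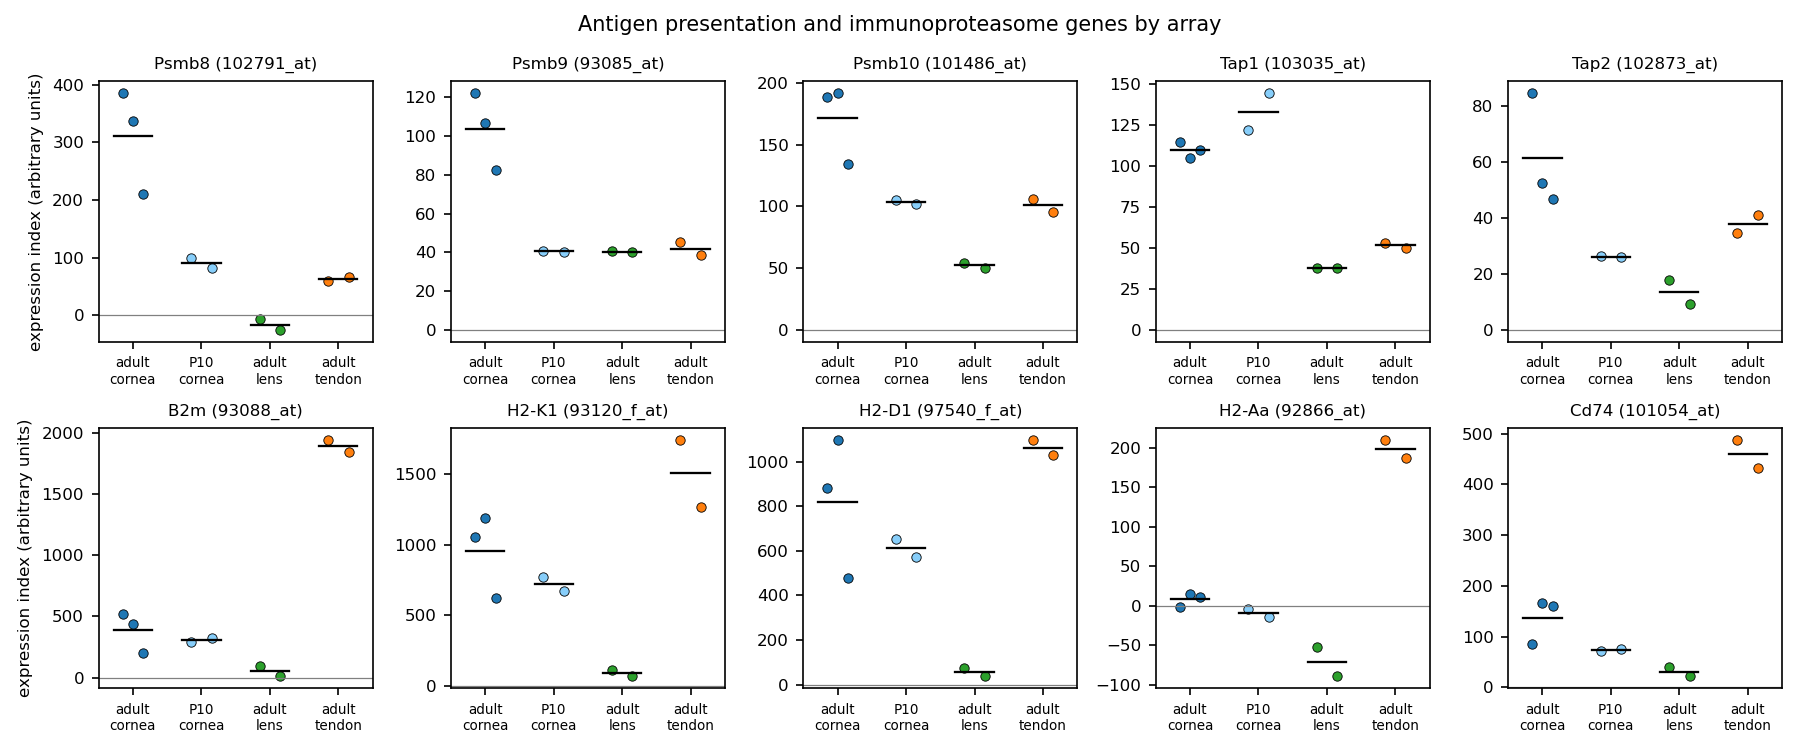
Expression index (arbitrary units, linear axis with its own scale in each panel) of the 10 genes on each of the 9 arrays, by the probe set with the highest mean, with a line at the group mean. Psmb8, Psmb9 and Psmb10 stand highest in adult cornea, and B2m, H2-Aa and Cd74 stand highest in tendon.

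Immunoproteasome messages were highest in adult cornea. Psmb8 and Psmb9 were higher in adult cornea than in P10 cornea, lens and tendon, and Psmb10 was higher in adult cornea than in lens and tendon. Among the 13 tested probe sets of the 10 genes, Psmb8 and Psmb9 were the 2 that passed between adult and P10 cornea, both higher, where 4.57% of all probe sets passed and 0.699% passed as higher. Both entered the test largely through adult cornea: Psmb9 reached the array median on the 3 adult corneas alone and Psmb8 on those and 1 P10 array, so their count is no measure over all the genes. With no filter on low values, over all 12422 probe sets, both still passed (adjusted p = 0.00676 for Psmb8 and 0.0165 for Psmb9). The median log2 difference over the 13 was 0.33, against -0.13 over all probe sets.

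Psmb8, the chymotrypsin-like subunit of the immunoproteasome, read 385, 338 and 210.0 in adult cornea, against 99.0 and 82.2 in P10 cornea. It read -6.90 and -25.8 on the lens arrays and 59.3 and 66.6 on the tendon arrays. Every adult cornea lay above every array of the other tissues. The log2 difference of adult from P10 cornea was 1.58 ± 0.25 (SE), a 2.99-fold difference (limma, adjusted p = 0.00598), and that from tendon was 2.01, or 4.03-fold (adjusted p = 0.000134). The difference from lens passed as well (adjusted p = 7.22e-07), with no fold because the lens values lie below 0. P10 cornea was also above lens (adjusted p = 2.73e-05), while P10 cornea and tendon were not separated (log2 difference 0.43, 95% interval -0.17 to 1.03).

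Psmb9, the subunit that replaces Psmb6, read 122, 106 and 82.6 in adult cornea. The other 6 arrays lay between 38.7 and 45.2, well below the lowest adult cornea. The adult cornea was 2.10-fold above P10 cornea (log2 difference 1.07 ± 0.20, SE, limma, adjusted p = 0.0141), 2.10-fold above lens (adjusted p = 0.00129) and 2.05-fold above tendon (adjusted p = 0.00239). P10 cornea, lens and tendon averaged 40.5, 40.4 and 41.9 and did not separate from each other (adjusted p = 0.905 to 0.992, with 95% intervals of the log2 differences inside -0.52 to 0.48). Since Psmb9 was tested only because adult cornea was bright, these comparisons favoured a difference, and its levels elsewhere are those of a dim probe set. With no filter the adjusted p was 0.0165 against P10 cornea, 0.00164 against lens and 0.00314 against tendon.

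Psmb10, the trypsin-like subunit, was graded. It read 188, 192 and 134 in adult cornea, against 105 and 102 in P10 cornea. It read 54.5 and 50.3 in lens and 106 and 95.9 in tendon. Adult and P10 cornea did not overlap, but the log2 difference of 0.63 (95% interval 0.20 to 1.07) missed the threshold across all probe sets (limma, adjusted p = 0.118). Adult cornea stood above lens by 2.71-fold (adjusted p = 0.000182) and above tendon by 1.59-fold (adjusted p = 0.0236). P10 cornea was 1.75-fold above lens (adjusted p = 0.0107), and lens was 1.71-fold below tendon (adjusted p = 0.0128). The call for Psmb10 in adult cornea against tendon did not hold in fits that left out adult cornea replicate 1 (adjusted p = 0.0704), tendon replicate 1 (0.104) or tendon replicate 2 (0.171). The Psmb10 calls of P10 cornea against lens and of lens against tendon were near the threshold too. The first missed it without lens replicate 2, P10 cornea replicate 1 or P10 cornea replicate 2 (0.0507 to 0.0659) and the second without lens replicate 2 or either tendon array (0.0516 to 0.0918).

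The ordinary subunits that these 3 replace did not separate the corneas. Psmb5, the counterpart of Psmb8, averaged 212 ± 51.2 in adult cornea and 186 ± 48.6 in P10 cornea (SD, n = 3 and 2). Psmb6, the counterpart of Psmb9, averaged 386 ± 73.1 in adult cornea and 360.2 ± 56.3 in P10 cornea. Psmb7, the counterpart of Psmb10, averaged 464 ± 70.7 in adult cornea and 493 ± 118 in P10 cornea. None of the 3 passed between the ages (limma, adjusted p = 0.846, 0.921 and 0.950). Psmb5 was lower in adult cornea than in lens, where it averaged 361 ± 72.7 (log2 difference -0.74, adjusted p = 0.0336), the opposite direction to Psmb8. Psmb6 and Psmb7 passed in none of the 6 comparisons. In all, 0 of 14 tested genes of the constitutive proteasome core passed between adult and P10 cornea by limma, and 0 did so at an unadjusted p under 0.05. The difference in behaviour between a subunit and its counterpart was not tested.

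**Figure D2:**
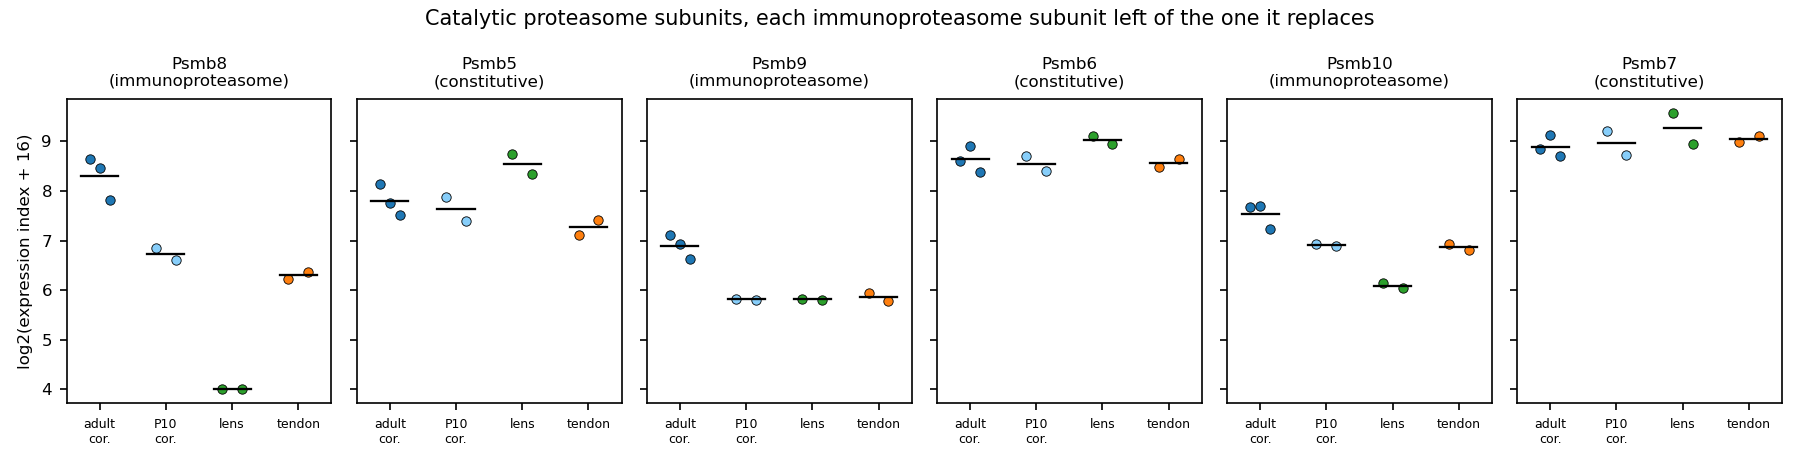
log2(expression index + 16) on each array for the 3 immunoproteasome subunits, each beside the ordinary subunit it replaces, with a line at the group mean. Psmb8 and Psmb9 are higher in all 3 adult corneas than in both P10 corneas, and the values of Psmb5, Psmb6 and Psmb7 overlap between the ages.

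Psme1, Tapbp and Calr, which act beside the immunoproteasome and the transporter, were also higher in adult cornea than in lens. Of the 12 tested genes of class I processing and loading, 8 rose in adult cornea against lens, where 27.2% of all probe sets passed as higher, and 5 of the 8 are among the 10 genes described here. The others tested, Psme3, Canx, Pdia3 and Hspa5, did not pass (log2 differences -0.13, 0.15, 0.39 and 0.03). The median log2 difference over the 12 was 1.15. Against tendon 6 were higher and 1 lower in adult cornea, where 35.0% of all probe sets passed. Psmb9, tested only because adult cornea was bright, is among the 8 and the 6. Psme1, a subunit of the PA28 activator that opens the proteasome, averaged 420.5 ± 104 in adult cornea and 280.4 ± 14.6 in P10 cornea. It averaged 55.2 ± 44.3 in lens and 111 ± 4.67 in tendon, and passed for adult cornea against lens (log2 difference 2.74, adjusted p = 0.000144) and tendon (1.75, adjusted p = 0.00362). Tapbp, the tapasin that bridges the transporter and the heavy chain, averaged 507 ± 129 in adult cornea and 363 ± 29.9 in P10 cornea, against 145 ± 21.6 in lens and 265 ± 33.7 in tendon. Tapbp passed for adult cornea against lens (1.68, adjusted p = 0.000238) and tendon (0.87, adjusted p = 0.0168). Neither Psme1 nor Tapbp passed between the ages (adjusted p = 0.563 and 0.432).

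Tap1, unlike Psmb8 and Psmb9, was high in cornea of both ages. It read 115, 105 and 110.1 in adult cornea, against 122 and 144 in P10 cornea. It read 38.1 and 37.6 in lens and 53.3 and 50.1 in tendon, so that every cornea of either age lay above every lens and tendon array. Adult cornea was 2.34-fold above lens (limma, adjusted p = 0.000204) and 1.86-fold above tendon (adjusted p = 0.00229). P10 cornea was 2.77-fold above lens (adjusted p = 0.000135) and 2.20-fold above tendon (adjusted p = 0.00143). The ages did not differ past the threshold (log2 difference -0.24, 95% interval -0.62 to 0.14, adjusted p = 0.581), although both P10 values lay above all 3 adult ones. The second Tap1 probe set, 162278_r_at, stayed below the array median everywhere, between 11.7 and 36.3, and was not tested. It did not show the corneal level of the first.

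Tap2 was dim. It read 84.5, 52.6 and 46.7 in adult cornea and 26.5 and 25.9 in P10 cornea, against 17.9 and 9.26 in lens and 34.8 and 41.0 in tendon. All 3 adult corneas lay above all other arrays, but only 1 array reached its median, so Tap2 was left out of the main fit. With no filter on low values, adult cornea passed against lens (log2 difference 1.37, adjusted p = 0.00115) and not against P10 cornea (0.84, adjusted p = 0.104) or tendon (0.49, adjusted p = 0.173).

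Psmb9 and Tap1 are neighbours that are read in opposite directions from a shared stretch of DNA. Their RefSeq start sites lie 226 bases apart (GRCm38.p6), and the reference table orders the genes Psmb9, Tap1, Psmb8, Tap2. The 250 bases before the starts of Psmb9 and Psmb8 are shown because these 2 genes separated the ages, and the Psmb9 stretch doubles as the promoter of Tap1. They are written 5' to 3' on the strand of each gene, from RefSeq, with motif matches in capitals. The Psmb9 stretch is chr17:34187331-34187580 on the minus strand and the Psmb8 stretch is chr17:34197945-34198194 on the plus strand.
Psmb9: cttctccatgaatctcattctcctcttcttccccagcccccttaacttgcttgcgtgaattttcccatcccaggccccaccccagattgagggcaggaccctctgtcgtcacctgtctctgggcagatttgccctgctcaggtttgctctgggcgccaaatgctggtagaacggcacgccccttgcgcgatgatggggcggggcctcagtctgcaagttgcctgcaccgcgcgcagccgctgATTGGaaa
Psmb8: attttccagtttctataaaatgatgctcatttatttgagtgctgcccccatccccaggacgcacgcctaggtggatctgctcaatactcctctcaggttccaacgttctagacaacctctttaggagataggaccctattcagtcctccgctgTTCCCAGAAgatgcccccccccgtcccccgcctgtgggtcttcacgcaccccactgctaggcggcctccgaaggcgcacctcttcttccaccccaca

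Short motifs known from interferon or class I and II promoters were searched on both strands of windows reaching 250 bases before and 50 after each start, for 8 of the 10 genes. They were the interferon-stimulated element core (GAAA and GAAA spaced by 2 bases), the gamma-activated site TTCNNNGAA, the Y box core ATTGG and the kappaB core (GGG and CCC spaced by 4 bases). Psmb8 held a gamma-activated match at position -97, which 1 of the 8 genes and 8.29% of 32817 mouse windows had. Psmb9 held an ATTGG at position -8, seen from Tap1 as CCAAT at -222. That core is common, and 37.4% of all windows held it, against 6 of the 8 genes. A match describes the letters only and shows no bound factor.

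Although they share this stretch, Psmb9 and Tap1 stood at different distances from each other at the 2 ages. The log2 of Psmb9 minus that of Tap1 within an array was -0.35 to 0.08 in adult cornea, with a mean of -0.09, against -1.52 to -1.28 in P10 cornea, with a mean of -1.40. The groups did not overlap and differed by 1.31 on the log2 scale. An exact two-sided permutation test gave p = 0.1, which is the smallest that 3 arrays against 2 allow, so the design cannot reach the threshold. The pair was chosen after its values had been seen.

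Class I molecules themselves followed another pattern. B2m and 5 of the 6 heavy-chain probe sets were higher in cornea of both ages and in tendon than in lens, and none of the 7 passed between adult and P10 cornea. B2m was also lower in adult cornea than in tendon, while none of those 5 passed there. H2-K1 by 97700_at ran differently and was highest in lens. Of the 13 tested probe sets of the 10 genes, 11 were higher and 1 lower in adult cornea than in lens, where 51.2% of all probe sets passed and 27.2% passed as higher. P10 cornea gave 10 higher and 1 lower against lens, where 51.0% of all probe sets passed and 31.6% passed as higher. The 10 include Cd74 (adjusted p = 0.0231), which missed the threshold with a pseudocount of 64, quantile normalization or median centring (0.0503 to 0.0724), and without lens replicate 2 (0.163), P10 cornea replicate 1 (0.0831) or P10 cornea replicate 2 (0.0942). The median log2 differences were 2.13 and 1.90, against 0.08 and 0.25 over all probe sets. In lens against tendon, 1 was higher and 10 were lower, where 49.0% of all probe sets passed and 26.4% passed as lower, with a median of -3.37 against -0.07. The 11 higher in adult cornea than in lens include Psmb9, which was tested only because adult cornea was bright. The 10 lower in lens than in tendon include H2-Aa, tested only through the tendon arrays, so neither call adds support.

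B2m read 523, 442 and 200.1 in adult cornea and 293 and 324 in P10 cornea. It read 92.8 and 8.50 in lens, against 1944 and 1846 in tendon. The adult corneas spanned the P10 values, while lens lay below and tendon above every cornea. B2m was 7.29-fold higher in adult cornea than in lens (log2 difference 2.87 ± 0.55, SE, limma, adjusted p = 0.00169) and 5.08-fold lower in adult cornea than in tendon (-2.34, adjusted p = 0.00786). Lens was 37.0-fold below tendon (adjusted p = 5.85e-05). Between the ages the log2 difference was 0.21, and its 95% interval, -1.02 to 1.44, leaves a difference of over 2-fold in either direction within reach. The B2m call for adult cornea against tendon did not hold with tendon replicate 1 (adjusted p = 0.0617) or tendon replicate 2 (0.0513) left out. In P10 cornea B2m was 5.89-fold below tendon (adjusted p = 0.0114), which did not hold with a pseudocount of 1 (0.0618), nor with tendon replicate 1 (0.0768), tendon replicate 2 (0.0624) or P10 cornea replicate 1 (0.0657) left out.

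H2-K1, a classical class I heavy chain, was bright through probe set 93120_f_at. It read 1053, 1188 and 621 in adult cornea and 773 and 672 in P10 cornea. It read 112 and 67.1 in lens, against 1744 and 1271 in tendon. The ages overlapped (log2 difference 0.34, 95% interval -0.33 to 1.02). Both corneas stood above lens, adult by 9.07-fold (limma, adjusted p = 1.58e-05) and P10 by 7.14-fold (adjusted p = 7.91e-05). Adult cornea was not separated from tendon (log2 difference -0.69, adjusted p = 0.107). P10 cornea was 2.04-fold below tendon, close to the threshold (adjusted p = 0.0430). That call did not hold when adult cornea replicate 1 was left out (adjusted p = 0.0566), nor on leaving out any one of the P10 cornea and tendon arrays (0.0871 to 0.286).

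The 3 H2-K1 probe sets disagreed. The second, 97125_f_at, read 462, 519 and 235 in adult cornea and 333 and 340 in P10 cornea, against 0.518 and -32.4 in lens and 458 and 438 in tendon, the same order as the first with lens at the bottom. The third, 97700_at, was dimmer and highest in lens, with 46.7, 65.9 and 46.4 in adult cornea and 51.2 and 59.8 in P10 cornea, against 188 and 175 in lens and 86.7 and 105 in tendon. By 97700_at adult cornea was 2.89-fold below lens (limma, adjusted p = 0.000122), while by 93120_f_at it was above. Lens was 1.77-fold above tendon by 97700_at (adjusted p = 0.00936) and 14.6-fold below tendon by 93120_f_at (adjusted p = 7.02e-06). The first of these missed the threshold when tendon replicate 1 was left out (adjusted p = 0.0901). The platform annotation gives no transcript accession for 97700_at. The suffix _f marks probes that match a family of related sequences, so the 93120_f_at and 97125_f_at values may include other class I heavy chains, and H2-K1 cannot be separated from them here.

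The 3 H2-D1 probe sets ran together. Probe set 97540_f_at read 883, 1099 and 478 in adult cornea and 652 and 574 in P10 cornea, against 75.4 and 36.1 in lens and 1097 and 1032 in tendon. Probe set 101886_f_at averaged 674 ± 201 in adult cornea and 658 ± 41.3 in P10 cornea, against 73.4 ± 12.8 in lens and 1063 ± 288 in tendon (SD, n = 3, 2, 2 and 2). Probe set 97541_f_at averaged 183 ± 46.4 in adult cornea and 151 ± 10.3 in P10 cornea, against 29.4 ± 10.6 in lens and 236 ± 3.70 in tendon. All 3 had the family suffix. Adult cornea was above lens by 11.5-fold, 7.53-fold and 4.37-fold in this order (limma, adjusted p = 1.86e-05, 1.50e-05 and 4.00e-05). None passed for adult cornea against P10 cornea (adjusted p = 0.739 to 0.998) or against tendon (adjusted p = 0.0886 to 0.347), though 101886_f_at passed against tendon with adult cornea replicate 2 left out (adjusted p = 0.0310). Lens was below tendon by 15.7-fold, 11.9-fold and 5.62-fold.

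**Figure D3:**
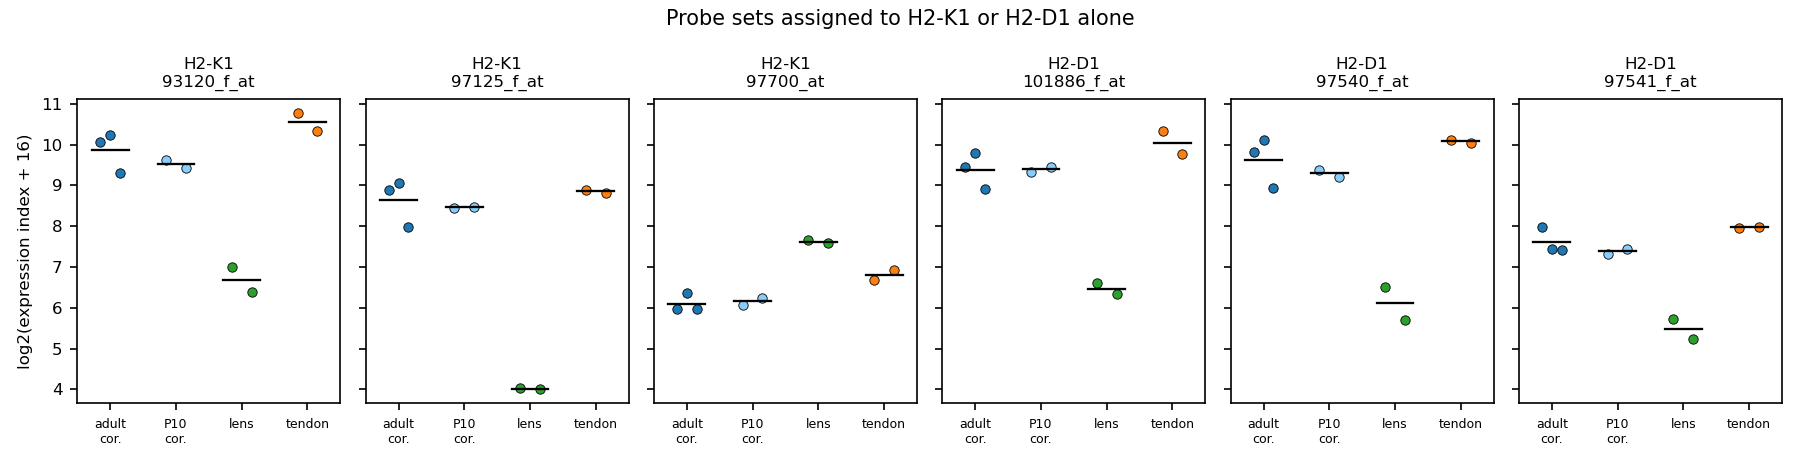
log2(expression index + 16) on each array for the 3 H2-K1 and the 3 H2-D1 probe sets, with a line at the group mean. In 5 of the 6 probe sets lens is lowest, and in 97700_at lens is highest.

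Other class I sequences also split by probe set. Among the 12 tested genes listed as heavy chains and class I-like, members included, 6 were higher and 3 lower in adult cornea than in lens. Over all probe sets 51.2% passed there and 27.2% passed as higher. Mr1, among the 6, reached the array median in adult cornea alone and was tested because of it. The list also held H2-Ke6, which is not a class I gene and did not pass. H2-Q4, a nonclassical class I gene, averaged 207 in adult cornea, against 17.5 in lens (log2 difference 2.75, limma, adjusted p = 5.95e-05). H2-Q10 averaged 123 in adult cornea, against 772 in lens (-2.55, adjusted p = 3.84e-05), and H2-M10.1 averaged 104 in adult cornea, against 923 in lens (-2.97, adjusted p = 1.92e-06). A probe set assigned jointly to H2-Q9, H2-Q7, H2-Q10 and H2-K1, 97174_r_at, read 684, 497 and 936 in adult cornea and 507 and 502 in P10 cornea. It read 955 and 1025 in lens, against 389 and 275 in tendon, and was likewise highest in lens. Probe set 102161_f_at, assigned to 10 genes with H2-K1 and H2-D1 among them, read 267, 412 and 199.7 in adult cornea and 251 and 249 in P10 cornea, against 41.0 and 33.9 in lens and 425 and 378 in tendon, the order of the H2-D1 probe sets. A further shared one, 95773_at, assigned to H2-D1 and 4 H2-Q genes, stayed between 3.99 and 31.2 and was not tested. Whether the probe sets that read highest in lens bind class I messages there was not tested.

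The promoters of B2m and H2-K1 are shown as the light chain and a heavy chain that were both higher in cornea and tendon than in lens, H2-K1 by 93120_f_at. The B2m stretch is chr2:122147437-122147686 on the plus strand, and the H2-K1 stretch is chr17:34000348-34000597 on the minus strand, the more upstream of 2 starts in the table. Both are the 250 bases before the start, from RefSeq (GRCm38.p6), with matches to the 4 motifs in capitals.
B2m: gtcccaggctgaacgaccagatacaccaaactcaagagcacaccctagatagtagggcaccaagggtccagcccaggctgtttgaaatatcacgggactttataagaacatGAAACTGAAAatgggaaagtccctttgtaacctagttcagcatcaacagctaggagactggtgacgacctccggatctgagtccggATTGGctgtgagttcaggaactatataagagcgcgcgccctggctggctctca
H2-K1: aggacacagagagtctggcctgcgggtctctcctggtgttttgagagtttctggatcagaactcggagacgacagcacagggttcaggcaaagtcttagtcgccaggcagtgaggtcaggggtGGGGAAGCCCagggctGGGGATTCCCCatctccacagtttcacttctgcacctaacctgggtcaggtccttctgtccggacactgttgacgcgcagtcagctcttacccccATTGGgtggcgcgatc

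B2m alone among the 8 genes held the interferon-stimulated core, at position -139, a match that 3.43% of all windows had. B2m also held ATTGG at -53, and H2-K1 held it at -16. H2-K1 held the kappaB core at -127 and, overlapping one another, at -111 and -110. H2-D1 and H2-Aa were the other genes of the 8 with a kappaB core, which 11.9% of all windows held. The 4 genes with no match to this kappaB core but a match to ATTGG or an interferon motif were B2m, Psmb8, Psmb9 and Tap1. Psmb10 matched none of the 4 motifs in its window. Variants of the patterns, such as another spacing, were not searched, so a window without a match can still hold such an element.

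Cd74 was lower in cornea of both ages and in lens than in tendon. H2-Aa read above its array's median in tendon alone and entered the test that way, so its calls add no support. Of the 13 tested probe sets of the 10 genes, 4 were higher and 4 lower in adult cornea than in tendon, where 35.0% of all probe sets passed. The median log2 difference was -0.45, against 0.01 over all probe sets. The 4 that were higher were Psmb8, Psmb9, Psmb10 and Tap1. Psmb9 was tested only because adult cornea was bright, so its call adds no support. The Psmb10 call did not hold without adult cornea replicate 1 or either tendon array. Tap2, the partner of Tap1, was not in the main fit and did not pass against tendon with no filter. The 4 that were lower were B2m, H2-K1 by 97700_at, H2-Aa and Cd74. The 97700_at difference of -0.70 (adjusted p = 0.0184) missed the threshold without adult cornea replicate 1 or either tendon array (0.0551 to 0.178). In P10 cornea against tendon, 1 was higher (Tap1) and 4 were lower (B2m, H2-K1 by 93120_f_at, H2-Aa and Cd74), where 26.7% of all probe sets passed and 11.0% passed as lower.

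Cd74 read 86.1, 166 and 161 in adult cornea and 72.0 and 75.8 in P10 cornea. It read 39.9 and 21.5 in lens, against 488 and 432 in tendon. Tendon lay above and lens below every cornea. Cd74 in adult cornea was 3.20-fold below tendon (log2 difference -1.68, limma, adjusted p = 0.00105) and 3.24-fold above lens (1.70, adjusted p = 0.000643). In P10 cornea it was 5.29-fold below tendon (adjusted p = 0.000286). All 3 adult corneas lay above both P10 corneas, but the difference of 0.72 (95% interval 0.10 to 1.35) missed the threshold (adjusted p = 0.225).

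H2-Aa reached the array median on the 2 tendon arrays alone. It read -2.06, 15.3 and 10.7 in adult cornea, -4.29 and -14.5 in P10 cornea and -51.8 and -89.6 in lens, against 209.9 and 186 in tendon. Adult cornea was below tendon by 3.17 on the log2 scale after values below 0 were set to 0 (log2 difference -3.17, limma, adjusted p = 1.68e-05). Since H2-Aa entered the test through the tendon arrays, this comparison had to show a large difference. With no filter the adjusted p was 8.32e-06. Adult cornea and lens were not separated (adjusted p = 0.126), except with adult cornea replicate 1 left out (adjusted p = 0.0180).

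Some leukocyte genes were high in tendon, as Cd74 was. The summed index of 29 of 32 leukocyte genes was 1988 to 2837 in adult cornea, 3079 to 3271 in P10 cornea and 3492 to 3660 in lens, against 5699 to 5872 in tendon. Fcer1g carried much of that order. Without it, a choice made after seeing the data, the sum of the other 28 was 1813 to 2697 in adult cornea, 2378 to 2862 in P10 cornea and 3390 to 3538 in lens, against 3490 to 3648 in tendon, so that lens and tendon overlapped, as did the 2 ages of cornea. Of 17 tested leukocyte genes, 6 were lower in adult cornea than in tendon, where 35.0% of all probe sets passed. Fcer1g and Cd14, 2 of the 17, were lower in adult than in P10 cornea, where 4.57% of all probe sets passed. In lens against tendon 5 were higher (Cd83, Cd86, Cd3e, Cd4 and Ighm) and 6 lower (Lcp1, Laptm5, Fcer1g, Csf1r, Lyz2 and Cd14), where 49.0% of all probe sets passed. Lyz2 and Lcp1 reached the array median in tendon alone, and Cd83 in lens alone. These genes entered the test that way, so their calls in lens and adult cornea against tendon add no support. Fcer1g, a signalling chain of myeloid receptors, read 183, 175 and 140.5 in adult cornea and 701 and 409.6 in P10 cornea, against 102 and 122 in lens and 2382 and 2051 in tendon. Lyz2, the lysozyme of macrophages and neutrophils, read 5.73 to 16.8 in cornea of either age and below 0 in lens, against 285 and 341 in tendon. The pan-leukocyte gene Ptprc read 82.0 to 139 on all 9 arrays without an order of tissues. The part of leukocyte content in the tendon levels of Cd74, H2-Aa and B2m was not tested.

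Between the ages the median log2 difference of the 17 leukocyte genes was -0.06. The summed index of 19 epithelial genes was 27318 to 29861 in adult cornea and 25498 to 25674 in P10 cornea, and 2 of 18 tested epithelial genes rose. The sum of 8 corneal stroma genes was 7270 to 8543 in adult cornea, against 19515 to 19636 in P10 cornea, and 5 of the 8 genes fell. In tendon that sum was 25937 to 28122, so the list does not mark corneal stroma alone. Over all probe sets 4.57% passed between the ages. The epithelial genes that rose were Slurp1 and Psca, and the other tested ones did not pass. Slurp1 averaged 1269 in adult cornea, against 61.6 in P10 cornea, and Psca averaged 1673, against 51.05. The epithelial sums of the 2 ages thus hide single genes that differ. In lens the epithelial sum was 2972 to 3678, against 1284 to 2381 in tendon. The part of these cell types in the immunoproteasome levels was not tested.

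**Figure D4:**
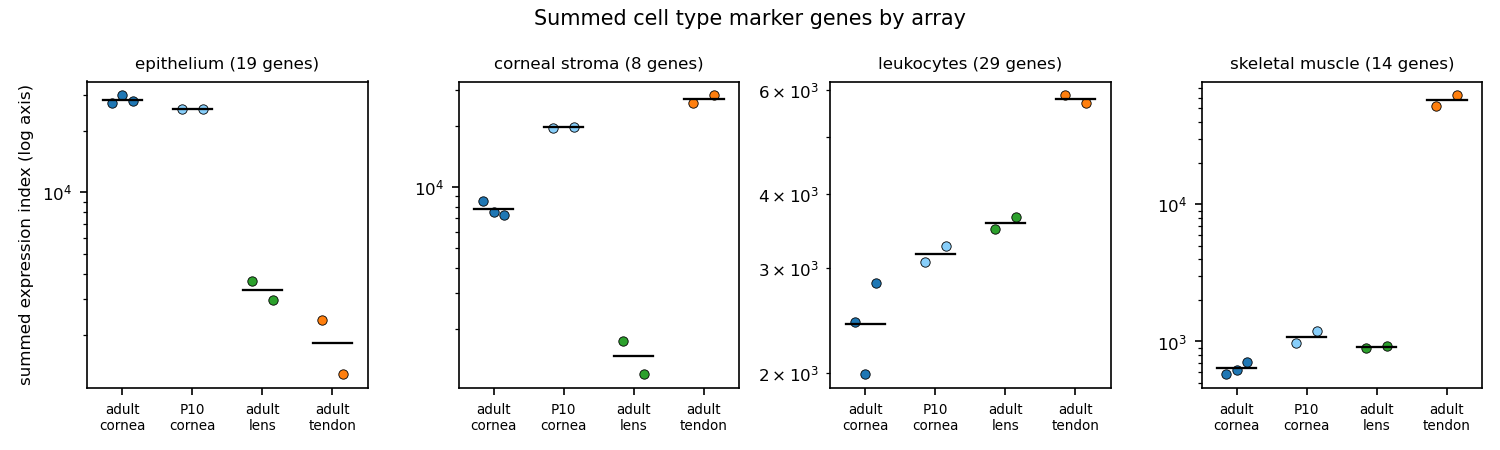
Summed expression index (log axis, arbitrary units) of genes listed for epithelium, corneal stroma, leukocytes and skeletal muscle, for each of the 9 arrays. The corneal stroma sum is highest in tendon. The leukocyte sum, to which Fcer1g adds 2051 to 2382 in tendon, is highest in tendon and lowest in adult cornea, and the epithelial sum is at least 25498 on every cornea array.

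**Figure D5:**
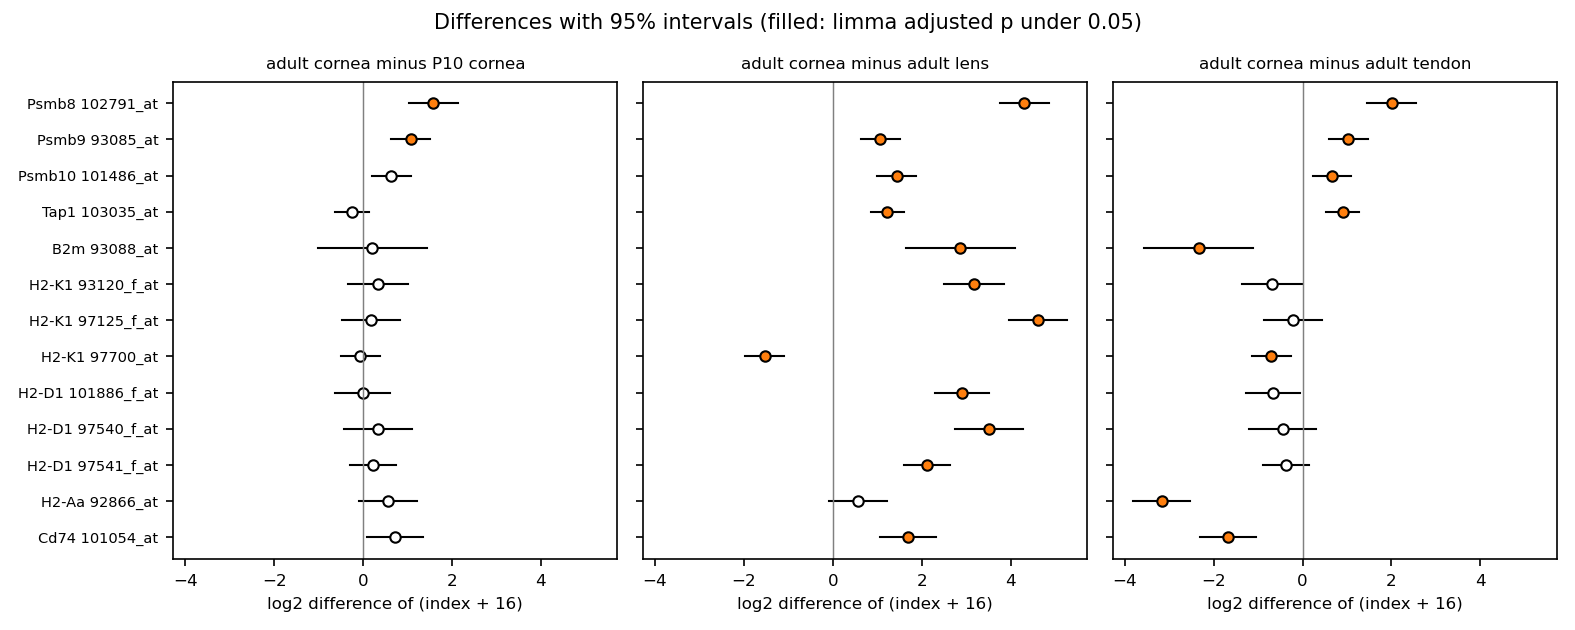
log2 difference of adult cornea from P10 cornea, lens and tendon for the 13 tested probe sets, with 95% intervals, filled where the adjusted p is under 0.05. Against P10 cornea Psmb8 and Psmb9 are filled, against lens all but H2-Aa are filled, and against tendon the filled points lie on both sides of 0.

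Class II genes beyond these members showed no common direction. Of 11 tested genes of the class II pathway, members included, 1 was higher and 3 were lower in adult cornea than in tendon. That is near the share of all probe sets that passed there, 35.0%. Ctss, the protease cathepsin S that trims the invariant chain, averaged 58.7 ± 28.1 in adult cornea and 34.6 ± 0.978 in P10 cornea, against 15.6 ± 8.92 in lens and 184 ± 21.6 in tendon. Ctss fell with Cd74 in adult cornea against tendon (log2 difference -1.49, limma, adjusted p = 0.00365). H2-Aa, also among the 3 lower, was tested only through the tendon arrays. Ctsl, cathepsin L, was higher in adult cornea, at 2078 against 980.5 in tendon (1.08, adjusted p = 0.00488).

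Interferon signalling genes were mixed between tissues. Of 22 tested, 12 were higher and 6 lower in adult cornea than in lens, where 51.2% of all probe sets passed and 27.2% passed as higher. Against tendon 6 were higher and 2 lower in adult cornea. That is near the share of all probe sets that passed there, 35.0%. None passed between the ages by limma, where 3 were higher and 1 lower at an unadjusted p under 0.05. Irf1, an interferon-induced factor that acts on class I promoters, averaged 422 ± 133 in adult cornea and 249 ± 12.8 in P10 cornea, against 138 ± 1.34 in lens and 191 ± 2.62 in tendon. Irf1 passed for adult cornea against lens (log2 difference 1.46, adjusted p = 0.00109) and tendon (1.03, adjusted p = 0.0118) but not against P10 cornea (0.67, adjusted p = 0.227). Ifi202b, an interferon-induced gene, averaged 573 ± 278 in adult cornea, against 40.6 ± 6.85 in lens and 50.1 ± 0.412 in tendon (3.26 and 3.03, adjusted p = 5.34e-05 and 0.000130). Cxcl10, a chemokine strongly induced by interferon, ran the opposite way between lens and tendon, with a mean of 108 in lens, against 5.25 in tendon (2.53, adjusted p = 6.21e-05). Since Cxcl10 reached the array median in lens alone and entered the test that way, this comparison had to show a large difference.

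The adult cornea replicates differed in level. Replicate 3 was the lowest of the 3 in 10 of the 13 tested probe sets of these genes, and in 40.5% of all tested probe sets. Without it, Psmb10 passed between adult and P10 cornea (limma, adjusted p = 0.0317). Psmb8 kept its call between the ages without any single adult cornea, and not without P10 cornea replicate 2 (adjusted p = 0.0888). Psmb9 missed the threshold in the fits that left out adult cornea replicate 1 (adjusted p = 0.0505), P10 cornea replicate 1 (adjusted p = 0.139) or P10 cornea replicate 2 (adjusted p = 0.148). With a P10 array left out, the P10 group is 1 array, assumed to vary like the other groups.

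The profiles most like those of 3 members belonged to genes that are not members. Likeness was the root mean square difference of the log2 values over the 9 arrays after centring each profile, among 7232 probe sets. Nearest to Psmb8 were Ces1d (0.45), Mknk2 (0.48) and Gsta2 (0.49), and the nearest member, H2-D1 by 97540_f_at, ranked 214 (0.94). Nearest to B2m were Serping1 (0.65), Mbnl1 (0.68) and Mgp (0.69), with H2-K1 by 93120_f_at at rank 14 (0.76). Nearest to Cd74 were Snapc3 (0.38), Slc2a4 (0.38) and Acvrl1 (0.40), with H2-Aa at rank 104 (0.65). These 9 arrays fall into 4 tissues, so a small difference says mainly that 2 genes share an order of tissues.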

How the data were processed

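Affymetrix arrays of 9 mouse RNA preparations were read from the deposited intensity values, a linear expression index of the authors on a like scale on all arrays. Microarray Suite 5.0 and then dChip with invariant-set normalization are named in the series' design text, and MAS5 in the submitters' processing notes. The sources used here do not say which of them produced the values. Genes were named through the platform annotation, with current symbols from RefSeq.

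Values below 0 were set to 0, 16 was added and log2 was taken, so folds of low genes are understated. The trimmed means of the arrays (percentiles 2 to 98) spanned a ratio of 1.171, and with a limit of 1.25 no rescaling was done. Testing required the array median to be reached on 2 or more of 9 arrays, which left 8154 of 12422 probe sets. A group-means model over all 9 arrays was fitted with limma 3.58.1 (R 4.3.3, moderated with trend, residual df 5, prior df 4.933), with two-sided p-values, Benjamini-Hochberg adjustment within each of 6 comparisons and a threshold of 0.05. The script was tested on simulated data. Precision is limited by the number of arrays, and whether preparations came from separate animals is not given, so p-values measure the spread between preparations. Replicate numbers did not pair the samples: correlations of same-numbered deviations ran from -0.363 to 0.201.

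All probe sets of the 10 genes were named, and of each pathway list at most 3 called genes per comparison with the largest change, plus Psmb5, Psmb6, Psmb7 and Irf1. The genes, lists and markers were chosen with earlier results of these data known. The brightest probe set on average stood for each listed gene. Alternatives changed the pseudocount, filter, normalization, arrays fitted, replicate block and test.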

Additional observations from a re-analysis of the deposited data

How the results depend on the processing

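Of 78 differences (13 probe sets in 6 comparisons), 49 passed. Of these, 38 kept their call in every limma fit that tested them, 11 lost it somewhere and 0 passed in the opposite direction. Of the other 29, 8 gained a call in some limma fit. The methods' t-test is not part of these counts, and after adjustment it gave far fewer calls, as listed below by comparison. Over all 12422 probe sets it gave 224 calls between adult and P10 cornea, and 0 after adjustment. After adjustment it gave 706 for adult cornea against lens and 651 against tendon. P10 cornea gave 82 against lens and 45 against tendon, and lens against tendon gave 540. Before adjustment adult cornea gave 1310 and P10 cornea 1137 against tendon. Shares over all probe sets are not given here for the other alternatives. Requiring the array median on at least 5 arrays drops Psmb8, Psmb9, H2-K1 by 97700_at and H2-Aa in every comparison. The counts that involve lens are lower with it too. Between adult and P10 cornea 2 probe sets passed, against 0 when the array median was required on at least 5 arrays, which drops Psmb8 and Psmb9, 1 with only the groups compared, and 1 by the methods' t-test or 0 after Benjamini-Hochberg. Leaving out 1 array gave 0 to 3. For adult cornea against lens the count was 12, against 1 by the methods' t-test after adjustment and 12 to 13 with an array left out. For adult cornea against tendon it was 8, against 4 with the 5-array filter, 4 by the methods' t-test, 3 after adjustment and 4 to 9 with an array left out. For P10 cornea against lens it was 11, against 0 by the methods' t-test after adjustment and 9 to 11 with an array left out. For P10 cornea against tendon it was 5, against 3 with a pseudocount of 1, 10 with only the groups compared, 3 by the methods' t-test, 0 after adjustment and 2 to 6 with an array left out. For lens against tendon it was 11, against 4 by the methods' t-test after adjustment and 8 to 11 with an array left out. With the replicate block the counts were 2, 12, 8, 11, 6 and 11 in this order of comparisons, and the numbers pair no samples.

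Of the differences that had not passed, 7 under 0.1 in size were given no direction, and 3 others changed sign. With an array left out, B2m between adult and P10 cornea ran from -0.04 to 0.61, H2-K1 by 97125_f_at between the ages from -0.02 to 0.52, and 97125_f_at for adult cornea against tendon from -0.42 to 0.12. The last was also 0.12 with the replicate block. The cause was not tested. The median of all probe sets for adult minus P10 cornea was -0.13 as deposited and 0.02 after quantile normalization, for P10 cornea minus lens 0.25 and 0.09, and for P10 cornea minus tendon 0.13 and 0.01, so small differences depend on the scaling. Detection calls were not used here, and a dim probe set such as Psmb9 outside adult cornea has no stated background.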

Other observations

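Beyond the genes above, 2 core proteasome subunits with no immunoproteasome counterpart were higher in adult cornea than in lens and tendon. Psmb1 averaged 1216 in adult cornea, against 350.2 in lens and 564 in tendon (log2 differences 1.72 and 1.06, limma, adjusted p = 0.000139 and 0.00445). Psma2 averaged 713 in adult cornea, against 350 in lens and 386 in tendon (0.99 and 0.84, adjusted p = 0.00750 and 0.0250).

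Class I-like genes split by tissue. Fcgrt, the receptor that protects antibodies and albumin from breakdown and pairs with B2m, averaged 295 in adult cornea, against 139 in lens and 695 in tendon, the same order as B2m (0.99 and -1.22, limma, adjusted p = 0.00616 and 0.00290). Mr1, which presents microbial vitamin metabolites, averaged 91.8 in adult cornea, against 21.4 in lens and 41.1 in tendon (1.51 and 0.90, adjusted p = 0.000265 and 0.00920). Mr1 reached the array median in adult cornea alone and was tested because of it, so these comparisons favoured a difference. H2-M9 averaged 151 in adult cornea, against 559 in lens (-1.79, adjusted p = 2.93e-05). Tyk2, a kinase of the interferon receptor, read 238 to 346 in cornea of either age and -167 and -324 in lens, against 314 and 318 in tendon.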
